A study of Mus musculus with 2 samples.

Results

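The bone morphogenetic protein (BMP) genes described here are 6 ligands, Bmp2, Bmp4, Bmp5, Bmp6, Bmp7 and Bmp10, and 4 receptors or coreceptors, Bmpr1a, Acvrl1, Bmpr2 and Eng. These 10 genes form a list of ligands and receptors drawn up with earlier results of these data known, and they were looked up by symbol among the 27999 features of the count tables, where all 10 were present. The material was whole heart of newborn mice (postnatal day 0, background strain C57BL6+ICR, no other genotype or treatment given), minced and digested in trypsin for 30 min at 37 °C with cells collected in 6 fractions of 5 min each, and run on the 10x Genomics droplet system with 3' chemistry. There was 1 biological sample with 2 technical replicates, so a difference between cell classes could not be tested against the spread between animals, and no test was possible. Sizes are given instead in each technical replicate, with exact 95% intervals that cover counting error only. How many hearts were pooled is not given in the sources used here. The series as a whole used such cells as a reference map for choosing factors that convert cell identity.

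BMPs are secreted dimers of the transforming growth factor beta family. They bind a complex of type I receptors such as Bmpr1a and Acvrl1 (also called ALK1) and type II receptors such as Bmpr2, and the type I kinase then phosphorylates Smad1, Smad5 and Smad9, which enter the nucleus with Smad4 and act on target genes such as Id1 and Id3. Eng encodes endoglin, a coreceptor that endothelial cells use beside Acvrl1 to bind circulating Bmp9 and Bmp10. In the mouse heart the pathway is known for roles in forming the atrioventricular canal and the valve cushions, in the growth of the ventricular wall and in vascular maturation.

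RefSeq promoter sequences (GRCm38.p6, 250 bases before to 50 bases after the start site) were found for 7 of the 10 members: Bmp4, Bmp5, Bmp6, Bmp10, Bmpr1a, Bmpr2 and Eng. Those of Bmp10 and Bmp5, the ligands that were higher in atrial than in ventricular barcodes and had an entry, and of Bmpr1a and Eng, which separated the endocardial from the vascular endothelial barcodes, are printed 5′ to 3′ on the strand of the gene. Capitals mark the letters GATAA (bound by GATA factors), AAGTG (Nkx2-5), GGTGT (T-box factors), CGGAA (ETS factors) and GGCGCC (a BMP response element), searched on both strands.
Bmp10: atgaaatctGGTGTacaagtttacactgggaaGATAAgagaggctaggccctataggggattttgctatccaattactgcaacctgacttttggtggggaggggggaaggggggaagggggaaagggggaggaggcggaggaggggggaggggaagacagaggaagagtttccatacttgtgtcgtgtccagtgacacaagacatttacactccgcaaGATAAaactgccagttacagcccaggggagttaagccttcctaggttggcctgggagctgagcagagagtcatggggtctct
Bmp5: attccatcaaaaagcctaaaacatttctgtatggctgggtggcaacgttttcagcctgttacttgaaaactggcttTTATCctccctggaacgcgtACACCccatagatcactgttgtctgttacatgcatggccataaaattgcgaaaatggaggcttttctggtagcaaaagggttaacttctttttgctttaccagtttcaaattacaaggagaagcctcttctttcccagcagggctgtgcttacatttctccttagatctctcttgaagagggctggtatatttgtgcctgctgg
Bmpr1a: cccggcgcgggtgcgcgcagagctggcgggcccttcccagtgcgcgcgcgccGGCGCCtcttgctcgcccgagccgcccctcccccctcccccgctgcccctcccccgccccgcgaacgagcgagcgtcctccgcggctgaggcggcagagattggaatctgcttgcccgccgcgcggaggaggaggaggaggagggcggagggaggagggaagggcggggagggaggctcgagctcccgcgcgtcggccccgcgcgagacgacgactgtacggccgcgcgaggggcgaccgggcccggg
Eng: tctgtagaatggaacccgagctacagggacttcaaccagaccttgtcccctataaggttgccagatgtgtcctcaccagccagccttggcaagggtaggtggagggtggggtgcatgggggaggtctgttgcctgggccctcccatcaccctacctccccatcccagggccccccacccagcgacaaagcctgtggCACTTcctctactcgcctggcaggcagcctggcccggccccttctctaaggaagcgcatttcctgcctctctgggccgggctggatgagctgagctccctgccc
The Bmp10 window lies at chr6:87428744-87429043 on the plus strand and holds GATAA at 218 and 32 bases before the start site and GGTGT at 241 bases before it. The Bmp5 window (chr9:75775115-75775414, plus strand) holds GATAA on the reverse strand at 174 bases and GGTGT on the reverse strand at 154 bases before the start site. The Bmpr1a window (chr14:34502497-34502796, minus strand) holds GGCGCC at 198 bases before the start site, and the Eng window (chr2:32646345-32646644, plus strand) holds AAGTG on the reverse strand at 54 bases before it. No base belonged to more than 1 match. Of 27025 promoters of the same length, 25.8% hold GATAA, 46.5% AAGTG, 41.6% GGTGT, 30.3% CGGAA and 12.0% GGCGCC, and each match is a description of letters only. In GRCm38 the Bmp10 gene spans chromosome 6 from 87428994 to 87437677 and Bmp5 chromosome 9 from 75775364 to 75900310, both on the plus strand. Bmpr1a spans chromosome 14 from 34410734 to 34503341 on the minus strand, and Eng spans chromosome 2 from 32646595 to 32682669 on the plus strand.

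The technical replicates held 5888 and 6047 barcodes with 34668956 and 33871582 counts, of which 4596 and 4005 barcodes with at least 500 genes and haemoglobin under 0.5% of counts were kept. The median depth of the kept barcodes was 5878 and 6074 counts. The labels give the same internal identifier to both records while the columns of the second table carry another, and the tables were assigned by the record they were deposited under. The replicates shared 53 barcode sequences, 31 of them among the kept barcodes. Barcodes were placed in classes by the number of listed marker genes detected, and cardiomyocytes were called ventricular at a Myl2 share over 0.8 of Myl2 plus Myl7 and atrial at a share under 0.2. Each class is like a cell type by its markers only, and its short name is used from here on. The 8 classes compared held 1304 atrial, 3577 ventricular, 235 endocardial, 595 vascular endothelial, 1189 fibroblast, 231 pericyte, 188 smooth muscle and 128 macrophage barcodes. Each had 3 or more of its own markers among its 10 leading genes. These markers also set the gates, so this is no separate check of a class. The exceptions were Nppa, Sln and Myl4 in atrial and Myl3 and Irx4 in ventricular barcodes, which set no gate. The epicardial class, with 16 and 36 barcodes, fell under the minimum of 30 in the first replicate and is described beside the compared classes. Mitochondrial genes took a median 21.6% of counts in atrial and 41.3% in ventricular barcodes, and 3.2% to 5.3% in the other compared classes, which lowers the level of every other gene in cardiomyocytes when it is given as CPM, counts per 1000000 counts of the class. In these counts fewer RNA molecules per cell and a smaller share of expressing cells give the same class level.

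The size rule called a gene in a class if both replicates held 20 or more of its counts there and both gave a CPM 2 or more times as high as in any other compared class. The 9 members other than Bmp6 reached the count minimum somewhere, and 2 of them were called, Bmp10 in atrial and Eng in endocardial barcodes. Over all 11993 features that reached the minimum, 11.3% were called in some class, beside 2 of the 9 members. By class the share was 1.62% in atrial, 0.825% in ventricular, 1.58% in endocardial, 1.68% in vascular endothelial, 1.39% in fibroblast, 0.725% in pericyte, 0.725% in smooth muscle and 2.73% in macrophage barcodes, and no member was called in the 6 classes other than atrial and endocardial. The median ratio of the highest to the next class was 1.26 over the 9 members and 1.25 over all those features. CPM were compared within a gene across classes, since capture at the 3' end differs between transcripts. The share of Bmpr1a in the counts of Bmpr1a plus Acvrl1, given below, carries that difference. It can be set against other classes but does not give the balance of the 2 transcripts within a class.

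**Figure D1:**
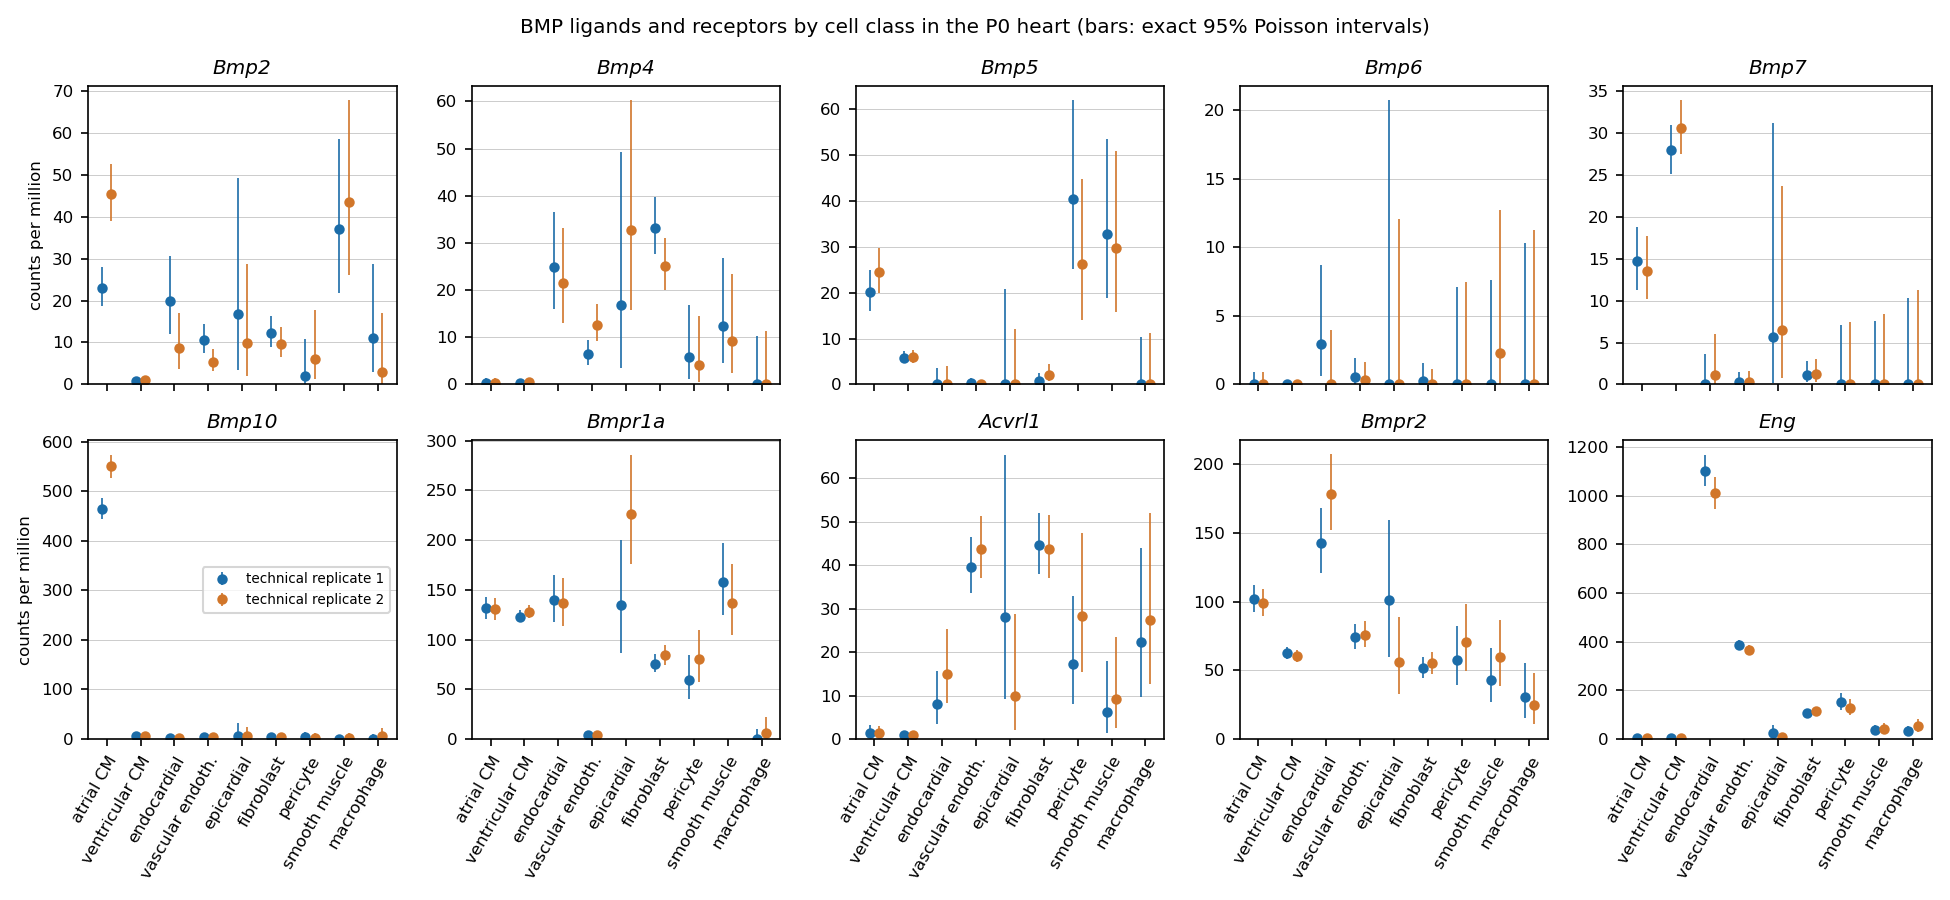
CPM (y axis, own scale in each panel) of each of the 10 members in 9 cell classes (x axis), as points for the 2 technical replicates with exact 95% Poisson intervals as bars; CM stands for cardiomyocyte. Bmp10 stands at 465 and 550.0 CPM in atrial cardiomyocytes and under 10 CPM in each other class, and Eng at 1101 and 1008 CPM in endocardial barcodes.

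Among the ligands, Bmp10 had nearly all of its counts in atrial barcodes. This ligand drives ventricular wall growth in the mouse embryo and is known as an atrial product around birth. It had 465 and 550.0 CPM in atrial barcodes (1961 and 2183 counts), against 6.34 and 4.93 CPM in ventricular barcodes (83 and 58 counts). The atrial level was 89.2 times the ventricular one (interval 75.4 to 106). Barcodes made mostly of haemoglobin, which mark free RNA, held 6.87 CPM on 2 counts in 61 barcodes. These are too few counts to tell whether the ventricular level lay above background. Vascular endothelial barcodes held 3.77 CPM on 27 counts and fibroblasts 3.32 CPM on 23 counts. Of the 141 ventricular counts, 63 lay in 16 barcodes with 2 or more counts. The part of free RNA in the ventricular level was not tested. The summed CPM of the 5 atrial markers was 53811 in atrial and 593.6 in ventricular barcodes. Of the atrial sum, 17681 CPM was Myl7, which is high there by the split itself. Nppa at 20218 CPM, Myl4 at 9022 CPM and Sln at 6886 CPM were not used in the split. The atrial class held 95.3% of the 4348 Bmp10 counts of the 9 classes. In barcodes with at most 20% mitochondrial counts the atrial over ventricular ratio was 43.7. The other classes held 1.08 to 6.20 CPM on 1 to 27 counts each. Thinned to 2000 counts each, 37.3% of 1291 atrial barcodes had a Bmp10 count (34.7% to 40%), against 0.902% of 3547 ventricular and 0.846% of 591 vascular endothelial barcodes. Unthinned, the shares were 43.5%, 2.63% and 4.20% at median depths of 5888, 6602 and 9129 counts.

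Within the atrial class Bmp10 was uneven. Of the 1304 barcodes, 737 had no Bmp10 count, 64 had 1, 131 had 2 to 4 and 372 had 5 or more, with a highest value of 36. The barcodes with 5 or more counts were 173 of 692 in the first replicate (25.0%) and 199 of 612 in the second (32.5%), and they held 89.6% of the atrial Bmp10 counts. Their median depth was 6115 counts, against 5940 counts in the barcodes without Bmp10. In the ventricular class 5 of 3577 barcodes had 5 or more counts.

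**Figure D2:**
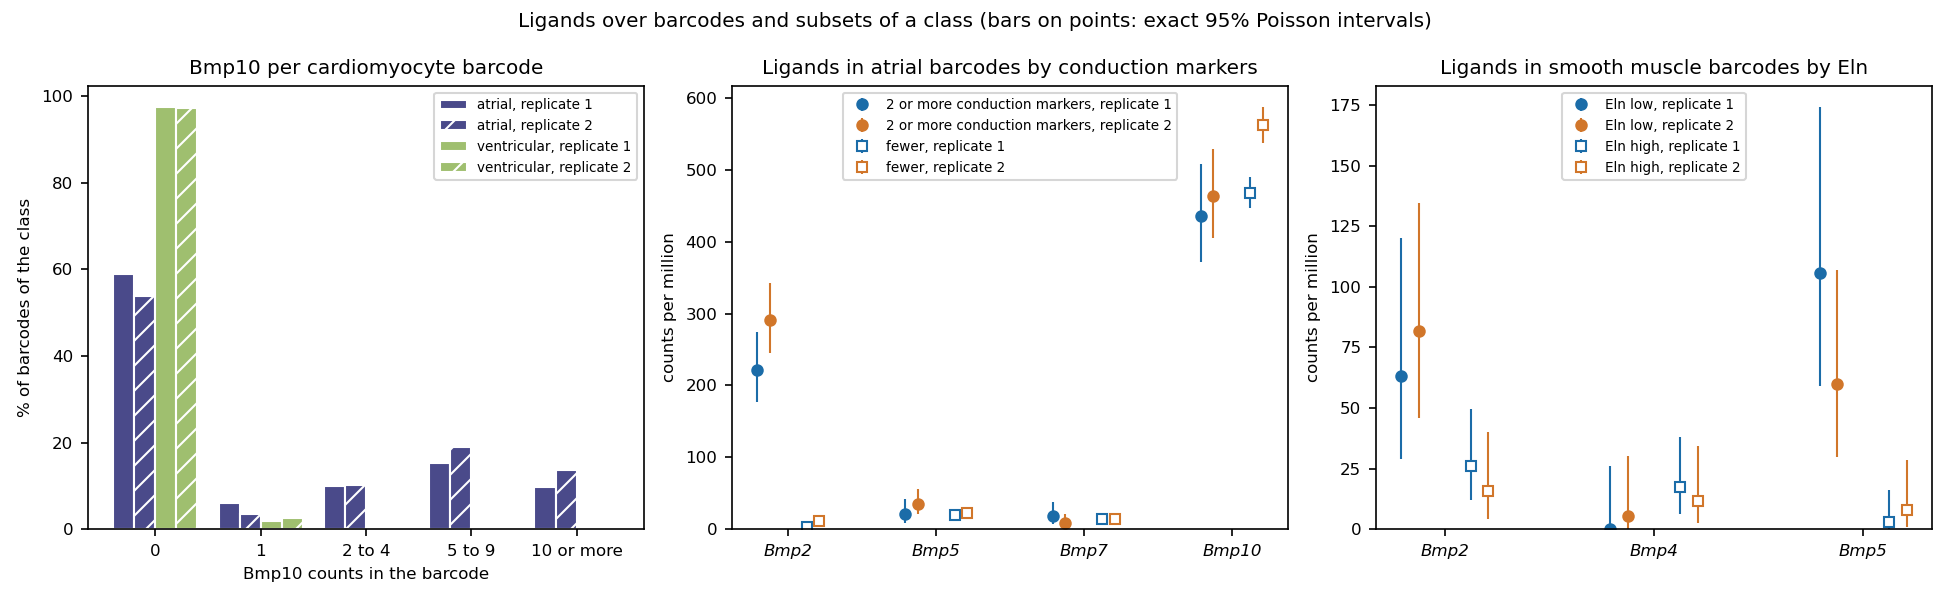
Left, percent of the barcodes of the class (y axis) by their number of Bmp10 counts (x axis), in atrial and ventricular barcodes, plain bars for technical replicate 1 and hatched bars for replicate 2. Middle and right, CPM of ligands in atrial barcodes with 2 or more and with fewer conduction markers, and in smooth muscle barcodes with low and with high Eln, as points per replicate with exact 95% Poisson intervals; Bmp2 follows the conduction markers (222 and 291 CPM against 3.39 and 11.2 CPM), and Bmp5 is higher in the barcodes with low Eln (106 and 59.8 CPM against 2.90 and 7.86 CPM).

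Bmp2, the ligand of the atrioventricular canal that sets off valve cushion formation, was found in few barcodes. Its highest class was smooth muscle with 37.0 and 43.4 CPM (18 and 19 counts), followed by atrial barcodes with 23.0 and 45.4 CPM (97 and 180 counts). These 2 classes overlapped across replicates, and their ratio of 1.18 had an interval of 0.815 to 1.67. Endocardial barcodes followed with 19.9 and 8.59 CPM, but 19 of the 20 counts of the first replicate lay in 1 barcode, and without it that replicate held 1.01 CPM. Epicardial, fibroblast, vascular endothelial and macrophage levels, between 7.29 and 12.4 CPM over both replicates, were not separated from their neighbours in that order. Ventricular barcodes had the lowest level, 0.916 and 1.02 CPM, and the atrial level was 35.0 times that (23.1 to 55.6). In barcodes with at most 20% mitochondrial counts that ratio was 9.36.

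Atrial Bmp2 came from a small set of barcodes. Of its 277 counts there, 260 lay in 27 barcodes with 2 or more counts, 13 in the first replicate and 14 in the second. Of these 27, 18 (66.7%) had at least 2 of the 5 listed conduction markers Tbx3, Tbx2, Hcn4, Cacna2d2 and Cpne5, against 94 (7.36%) of the other 1277 atrial barcodes. The 27 barcodes had a median depth of 8427 counts, against 5859 in the other 1277, and more markers are detected at greater depth. At the level of sums, Tbx3, a repressor of the working atrial program in the conduction system, stood at 119 CPM in the 27 barcodes and 2.52 CPM in the other 1277. Cacna2d2 stood at 513 against 61.9 CPM and Cpne5 at 291 against 31.0 CPM. Hcn4 stood at 16.4 against 1.64 CPM, on 4 and 13 counts. Tbx2 stood at 24.6 against 5.92 CPM, with 0 counts in the 13 barcodes of the first replicate. Of the 372 barcodes with 5 or more Bmp10 counts, 42 (11.3%) had at least 2 conduction markers, against 52 (7.06%) of the 737 without Bmp10. Those 372 held 0 Tbx3 counts, 1 Hcn4 count and 4 Tbx2 counts, against 48, 14 and 44 in the 737. Cacna2d2 stood higher in the 372, at 106 against 55.2 CPM, and Cpne5 at 41.1 against 31.1 CPM. Turned round, the 112 atrial barcodes with at least 2 conduction markers had 222 and 291 CPM of Bmp2. The rest had 3.39 and 11.2 CPM. The ratio was 36.7 (27.0 to 50.6), but 65.5 and 26.0 in the replicates, both outside that interval. Bmp2 counts lay in 24 of the 112 barcodes and in 20 of the rest, and the interval does not cover such unevenness. The 112 barcodes held 81.2% of the atrial Bmp2 counts. In those 112 barcodes Bmp10 was at 436 and 464 CPM, against 468 and 562 CPM in the rest. Yet none of the 27 barcodes richest in Bmp2 held a single Bmp10 count, which allows up to 12.3 CPM (3 counts). The list of conduction markers was fixed earlier, and the division was made after the Bmp2 values were seen. With the 112 barcodes left out, an alternative added after seeing the data, the atrial over ventricular ratio of Bmp2 was 7.35. Bmp2 was then no longer called, since the first replicate kept 13 atrial counts, under the minimum of 20.

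Bmp2 was also uneven in other classes. Vascular endothelial barcodes with at least 3 counts of the arterial genes Gja5, Sox17, Gja4 and Hey1 had 16.8 and 5.91 CPM, against 4.70 and 4.77 CPM in the rest, so the replicates did not give the same size, and 10 of the 40 counts of the whole class in the first replicate were in 1 barcode. The arterial barcodes were deeper, with a median of 14874 counts against 6804. Fibroblast barcodes with at least 2 counts of the valve and tendon genes Scx, Fmod and Sox9 had 16.2 and 12.7 CPM, against 7.94 and 6.90 CPM in the rest, a ratio of 1.97 (1.20 to 3.30). Smooth muscle barcodes with low Eln had 63.4 and 81.6 CPM, against 26.1 and 15.7 CPM in those with high Eln, the elastin gene that marks great vessel walls.

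Bmp5, a ligand of the same subgroup as Bmp7, was shared by mural cells and atrial cardiomyocytes. It had 40.5 and 26.2 CPM in pericytes, 32.9 and 29.7 CPM in smooth muscle and 20.2 and 24.4 CPM in atrial barcodes, and the intervals of these neighbours were not separated. Ventricular barcodes had 5.80 and 5.95 CPM, below the atrial level by a ratio of 3.78 (3.03 to 4.74). Fibroblasts had 0.831 and 2.12 CPM, the vascular endothelial class held 1 count, and endocardial, epicardial and macrophage barcodes held none. A count of 0 allows up to 1.55 CPM in endocardial, 6.20 CPM in epicardial and 4.38 CPM in macrophage barcodes. Smooth muscle itself was split: barcodes with Eln under the chosen share had 106 and 59.8 CPM of Bmp5 (15 and 11 counts in 31 and 38 barcodes), against 2.90 and 7.86 CPM in the others (1 and 2 counts in 70 and 49 barcodes), a ratio of 15.9 (4.89 to 82.3). Bmpr1a did not follow Eln, with 113 and 152 CPM in low and 177 and 126 CPM in high Eln barcodes. In the atrium 146 of the 163 barcodes with Bmp5 held 1 count, while 372 of 567 with Bmp10 held 5 or more. Bmp5 had 182 atrial counts in all and Bmp10 4144. At such unlike levels these numbers do not compare how the 2 genes were spread over barcodes.

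Bmp7, a ligand with broad roles in heart and kidney development, was a cardiomyocyte transcript and its highest class was ventricular. It had 14.7 and 13.6 CPM in atrial barcodes (62 and 54 counts), against 28.0 and 30.6 CPM in ventricular barcodes (366 and 360 counts). The replicates of the 2 classes did not overlap. The other classes held 0 to 8 counts each, and pericyte, smooth muscle and macrophage barcodes held none, so 13.6% of its counts in the 9 classes were atrial and 84.8% ventricular. Atrial over ventricular, the ratio was 0.526 and 0.444 in the replicates and 0.485 in all (0.395 to 0.591), so the first replicate missed the 2-fold rule and Bmp7 was not called. It was called lower without the first replicate (0.444) and with haemoglobin under 0.1% (0.460). Totals taken without the mitochondrial and haemoglobin genes gave 18.2 CPM in atrial and 48.8 CPM in ventricular barcodes, a ratio of 0.373 that was called, while keeping only barcodes with at most 20% mitochondrial counts gave 0.740.

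Bmp4, known from the outflow tract and second heart field, was highest in stromal and endocardial classes. Fibroblasts had 33.2 and 25.1 CPM (120 and 83 counts), epicardial barcodes 16.8 and 32.8 CPM (3 and 10 counts) and endocardial barcodes 24.8 and 21.5 CPM (25 and 20 counts). These neighbours were not separated, while endocardial barcodes stood above smooth muscle (12.3 and 9.13 CPM) by 2.15 times (1.07 to 4.78). Vascular endothelial barcodes had 6.39 and 12.6 CPM. Atrial barcodes held 2 counts, ventricular barcodes 10 and macrophages none, so the highest classes of Bmp4 were not those of Bmp7. The genes Gm15217 and Gm15222 lie antisense to Bmp4, with 150 counts in all, and whether strand was used in counting is not stated.

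Bmp6 was close to the floor everywhere. It had 9 counts in all, of which 8 were in the compared classes, 3 each in endocardial and vascular endothelial barcodes and 1 each in fibroblasts and smooth muscle. No order of classes can be read from these counts.

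Among the receptors, the type I kinases Bmpr1a and Acvrl1 marked different endothelia. Bmpr1a, the main type I receptor for Bmp2 and Bmp4, had 140.0 and 136 CPM in endocardial barcodes (141 and 127 counts), against 3.99 and 3.81 CPM in vascular endothelial barcodes (15 and 13 counts). The ratio was 35.4 (23.9 to 54.2) and was 35.0 and 35.8 in the replicates. Acvrl1, the type I receptor of Bmp10 and Bmp9 in vessels, went the other way, with 7.94 and 15 CPM in endocardial barcodes (8 and 14 counts) and 39.7 and 43.7 CPM in vascular endothelial barcodes (149 counts in each replicate), a ratio of 0.273 (0.168 to 0.421). Of all features tested between these classes, 7.96% were called higher and 7.21% lower. Of the counts of the pair, Bmpr1a took 92.4% in endocardial barcodes (268 of 290, exact binomial interval 88.7% to 95.2%), against 8.59% in vascular endothelial barcodes (28 of 326, 5.78% to 12.2%). The summed CPM of the 10 fibroblast markers, cells that also carry Bmpr1a, was 1271 in endocardial and 116 in vascular endothelial barcodes, against 26508 in fibroblasts, where Bmpr1a was at 79.6 CPM, and their part in the difference was not tested. Thinned to 2000 counts, 25% of 232 endocardial barcodes had a Bmpr1a count, against 0.338% of 591 vascular endothelial barcodes.

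**Figure D3:**
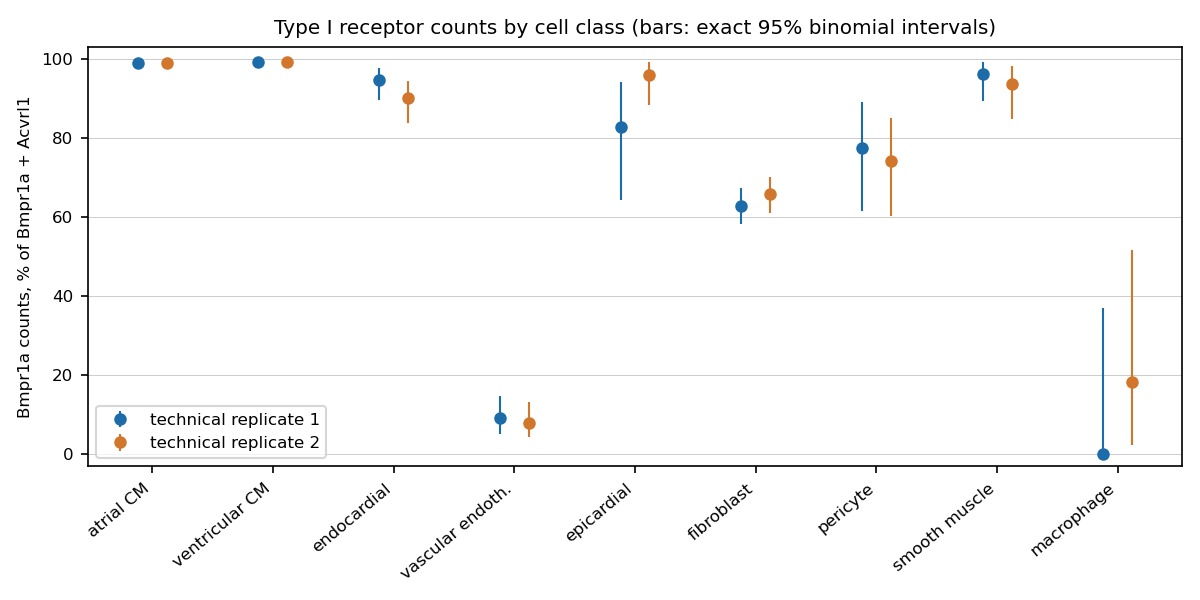
Bmpr1a counts as a percent of Bmpr1a plus Acvrl1 counts (y axis) in 9 cell classes (x axis), as points for the 2 technical replicates with exact 95% binomial intervals; CM stands for cardiomyocyte. Endocardial barcodes sit at 94.6% and 90.1% beside the cardiomyocytes, and vascular endothelial barcodes at 9.15% and 8.02%.

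Elsewhere Bmpr1a was broad. Smooth muscle had 158 and 137 CPM, atrial barcodes 132 and 130.3 CPM, and ventricular barcodes 123 and 128 CPM. From smooth muscle through endocardial and atrial to ventricular barcodes, neighbours differed by ratios of 1.07, 1.05 and 1.05, and these were not separated. The 52 epicardial barcodes had the highest level over both replicates, 135 and 226 CPM, not separated from smooth muscle. Fibroblasts had 75.6 and 84.0 CPM and pericytes 59.8 and 80.6 CPM, and the pericyte level was 17.9 times the vascular endothelial one. Macrophages held 2 counts. The order among these classes rests on the denominator: over totals without mitochondrial and haemoglobin genes, Bmpr1a stood at 168 CPM in atrial, 209 CPM in ventricular and 156 CPM in smooth muscle barcodes. In cardiomyocytes Bmpr1a took 99.0% of the pair's counts in atrial and 99.3% in ventricular barcodes. Fibroblasts carried both kinases, with Bmpr1a at 64.3% of 857 counts.

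Acvrl1 was also found outside the endothelium. It had 44.6 and 43.8 CPM in fibroblasts, against 39.7 and 43.7 CPM in vascular endothelial barcodes, a ratio of 1.06 (0.903 to 1.25). The summed CPM of the 10 shared endothelial markers was 430 in fibroblasts and 6455 in vascular endothelial barcodes. Macrophages followed with 22.4 and 27.5 CPM on 17 counts and pericytes with 17.4 and 28.2 CPM on 23 counts, not separated from each other. Atrial barcodes had 1.42 and 1.26 CPM and ventricular barcodes 0.840 and 1.02 CPM.

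Bmpr2, the type II receptor whose loss is known from pulmonary hypertension, was found in every class. It had 143 and 178 CPM in endocardial barcodes as the highest and 30.8 and 24.4 CPM in macrophages as the lowest. Atrial barcodes had 102 and 98.8 CPM, vascular endothelial 74.3 and 76.0 CPM and ventricular 62.6 and 60.3 CPM. Endocardial barcodes stood 1.59 times above atrial ones (1.39 to 1.82), and the classes from vascular endothelial to pericyte and from pericyte to ventricular were not separated. Endocardial over vascular endothelial, the ratio was 1.92 and 2.35 in the replicates, 2.13 in all, so the first replicate kept it from being called. Atrial over ventricular it was 1.63 (1.5 to 1.78), and it ran from 1.25 to 1.67 over the settings tried. Mitochondrial genes took unlike shares of the counts in these classes, so the order of atrial, vascular endothelial and ventricular levels may change with the denominator.

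Eng, the endoglin coreceptor, was called in the endocardium. It had 1101 and 1008 CPM in endocardial barcodes (1109 and 939 counts), against 385 and 365 CPM in vascular endothelial barcodes (1447 and 1244 counts). The ratio was 2.81 (2.65 to 2.98). Thinned to 2000 counts, 88.8% of 232 endocardial barcodes had an Eng count, against 49.4% of 591 vascular endothelial and 0.733% of 3547 ventricular barcodes. Of the endothelial barcodes with an Eng count, 20 of 230 endocardial ones (8.70%) and 188 of 512 vascular ones (36.7%) also had an Acvrl1 count, while 128 and 26 also had a Bmpr1a count. The Acvrl1 shares lay near those over all barcodes of these classes, 8.51% and 33.9%. They were not thinned, at median depths of 6658 and 9129 counts. Pericytes had 150.4 and 129 CPM, fibroblasts 107 and 116 CPM, macrophages 30.8 and 51.9 CPM and smooth muscle 34.9 and 41.1 CPM. The order from endocardial to fibroblast was separated at each step, and macrophages and smooth muscle were not separated. Cardiomyocytes had 4.74 and 5.04 CPM in the atrial and 3.05 and 2.89 CPM in the ventricular class. Fpgs lies antisense to Eng with 481 counts in all.

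The 4 pairs of related classes were compared with the same rule in both directions. Between atrial and ventricular barcodes 3 of 7 members that reached the count minimum were called higher, Bmp2, Bmp5 and Bmp10, and none lower, where 8.19% of 10628 features were called higher and 2.32% lower. The median ratio was 1.64 over the 7 members and 1.32 over all features. Between endocardial and vascular endothelial barcodes 2 of 5 members were called higher, Bmpr1a and Eng, and Acvrl1 was called lower, where 7.96% of 9414 features were called higher and 7.21% lower, with a median ratio of 2.48 over the 5 members and 1.06 over all features. Bmp4 had a ratio of 2.48 there (3.88 and 1.70 in the replicates) and was not called.

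Between pericytes and smooth muscle, Eng was called higher, where 9.05% of 4211 features were called higher and 7.62% lower, and no member was called lower. Pericytes had 150.4 and 129 CPM of Eng and smooth muscle 34.9 and 41.1 CPM, a ratio of 3.70 (2.54 to 5.52). The summed CPM of the 10 shared endothelial markers was 621 in pericytes and 439 in smooth muscle, and their part in the difference was not tested. Bmpr1a was lower in pericytes by a ratio of 0.472 (0.350 to 0.634) and was not called, since it was 0.378 and 0.589 in the replicates; it was called lower with the first replicate alone. Bmp2 had 4 counts in pericytes and 37 in smooth muscle, under the minimum. Over the 3 members that reached the minimum the median ratio was 1.26, and over all 4211 features 1.15.

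The epicardial barcodes were set against fibroblasts only at a lowered minimum of 15 barcodes, chosen after seeing the data. Eng was called lower, with 22.4 and 6.55 CPM in epicardial barcodes (4 and 2 counts) and 107 and 116 CPM in fibroblasts, a ratio of 0.112 (0.0409 to 0.245), where 2.65% of 9619 features were called higher and 11.0% lower. The summed CPM of the 10 fibroblast markers was 18425 in epicardial barcodes and 26508 in fibroblasts. Bmpr1a was 2.42 times higher (1.92 to 3.01) and Acvrl1 had a ratio of 0.374 (0.160 to 0.747) on 8 epicardial counts, and neither was called. The Acvrl1 ratio was 0.629 in the first and 0.224 in the second replicate. The median ratio was 1.02 over the 6 members that reached the minimum and 0.927 over all features.

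**Figure D4:**
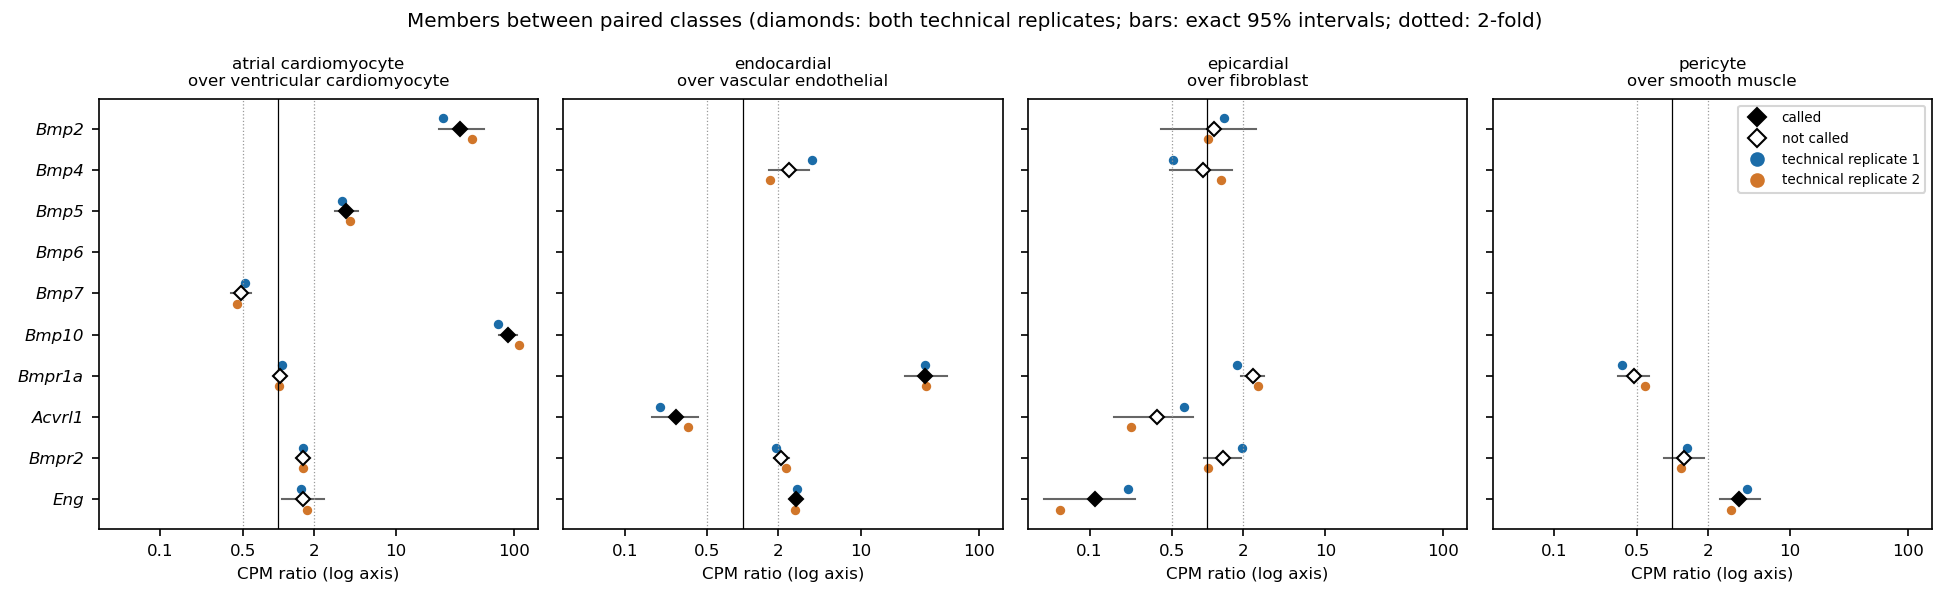
Ratio of CPM between 4 pairs of classes (x axis, log scale, first-named class over second) for the members that reached the count minimum (y axis), as diamonds over both technical replicates with exact 95% intervals and as points per replicate; filled diamonds are called and dotted lines mark 2-fold. Bmp10 reaches 89.2 and Bmp2 35.0 between atrial and ventricular barcodes, and Bmpr1a reaches 35.4 between endocardial and vascular endothelial barcodes while Acvrl1 lies at 0.273.

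Of 75 other pathway genes, in 5 lists, 54 reached the count minimum and 12 were called in a class, beside 11.3% of all features. Among other ligands 0 of 3 that reached the minimum were called (13 measured). Among other receptors 4 of 10 were called. The type I receptor Acvr1 had 84.4 and 81.6 CPM in endocardial barcodes, 3.94 times the next class, and the coreceptor Tgfbr3 had 69.5 and 63.4 CPM there, 2.12 times the next. Hfe2, the hemojuvelin coreceptor, had 101 and 92.5 CPM in atrial barcodes, 2.48 times the ventricular level, and the decoy receptor Bambi had 154 and 157 CPM in smooth muscle, 2.55 times the next class.

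Among 12 secreted antagonists and modulators that reached the minimum 4 were called. Sost, which encodes the secreted protein sclerostin, had 573 and 466 CPM in smooth muscle, 7.08 times the endocardial level. Fstl3, which binds activins and BMPs, had 136 and 116 CPM there, 3.46 times the next class. Bmper had 20.8 and 26.9 CPM in fibroblasts, 8.07 times the next class, and Vwc2 had 6.88 and 8.06 CPM in atrial barcodes, 5.16 times the next. Of 14 intracellular genes 1 was called, Fkbp1a, which holds type I receptors inactive, with 2123 and 2178 CPM in vascular endothelial barcodes. Of 15 targets 3 were called. Id1 had 553 and 545 CPM in vascular endothelial barcodes, 2.77 times the endocardial level, Tmem100, a gene downstream of Acvrl1 in endothelium, had 304 and 277 CPM in endocardial barcodes, 14.0 times the vascular level, and Sox9 had 291 and 250 CPM in fibroblasts, 34.4 times the next class. The epicardial class, which was not among those compared, held 176 CPM of Bambi, above smooth muscle. It also stood above the next compared class for Tgfbr3, with 35.2 CPM against 31.4 CPM in vascular endothelial barcodes. For Id1 it held 325 CPM, against 198 CPM in endocardial barcodes. Its Bmper at 6.20 CPM and Vwc2 at 2.07 CPM did not exceed the 6.20 CPM that 3 counts give in this class, so they are not ranked.

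Other genes with the nearest profile over the 8 classes were sought by Pearson's r of log2(CPM + 5) among 8992 features. They are given as a description over 8 points that share libraries. For Bmp10 these were Gm32849, Gm13054 and Kcnh7 (each r = 1.00), for Bmp7 Dgat2, Fabp3 and mt-Nd1 (each r = 0.99), and for Bmp4 they included Adamts5 and Col5a2 (each r = 0.97). For Bmp5 they were Enpep, Ciao2b and Hdac11 (0.94 to 0.96), and for Bmp2 Tnk2, Arhgap1 and Pdgfc (0.85 to 0.87). For Bmpr1a they were Meis1, Aig1 and Kank2 (0.96 to 0.99), for Acvrl1 Tbcc, Dynlt1f and Gm10020 (0.97 to 0.98), for Bmpr2 Gigyf1, Mark3 and Mrpl44 (0.98 to 0.99) and for Eng Zc3h7a, Mov10 and Chd1 (0.98 to 0.99).

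Ventricular barcodes were also divided, after values were seen, by a cell cycle list and by Nppa, the natriuretic peptide gene of atrial, stretched and trabecular muscle, which led the genes of the atrial class here with 20218 CPM. Bmp7 did not differ by Nppa, with a ratio of 1.02 between the 358 barcodes highest in Nppa and the rest (0.797 to 1.30). Bmp2 had 5.64 and 3.43 CPM in the barcodes highest in Nppa, against 0.343 and 0.755 CPM in the rest, on 24 counts in all, and the 12 counts of the highest barcodes lay in 6 of them. The atrial ligand Bmp10 was also higher in those barcodes, with 11.3 and 6.01 CPM against 5.74 and 4.81 CPM in the rest, a ratio of 1.68 (1.03 to 2.64), and the part of atrial RNA in either difference was not tested. Bmpr1a had a ratio of 1.20 between cycling and other ventricular barcodes in each replicate (interval over both 1.08 to 1.34), and Bmp7 had ratios of 0.648 and 1.46 there, in opposite directions in the replicates.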

How the data were processed

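The deposited tables hold whole-number counts per gene and barcode, made by the authors with Cell Ranger 2.1.0 on mm10, per the submitters' processing notes; whether counts are molecules or reads, and whether strand was used, is not given in the sources used here. For each class, the counts of its kept barcodes were added up in each replicate and divided by the class total to give CPM, counts per 1000000. Barcodes needed at least 500 genes and haemoglobin under 0.5%. A class needed a set number of its listed markers (of 10 each, cardiomyocyte 8 with at least 0.5% of counts, fibroblast 6, epicardial 5, endothelial 5 then vascular 4 or endocardial 3, pericyte 5, smooth muscle 6, macrophage 5 of 11); barcodes passing the fibroblast and epicardial gates were epicardial, those passing several mesenchymal gates went to a list leading by 2 markers, other conflicts were left unassigned, and no doublet caller was run. Poisson, Clopper-Pearson and conditional binomial intervals cover counting error only. The median kept barcode held 5878 and 6074 counts. The rule was checked on simulated data. The members and lists were chosen with earlier results of these data known, and gate thresholds and the divisions within a class after seeing the data. Named genes are all members, up to 3 genes of each pathway list per class that were called, by the largest ratio, and the 3 genes of nearest profile per member, of which 1 is not reported here. Left out were 1208 and 1940 barcodes for haemoglobin and 84 and 102 for few genes. Tools were scipy 1.17.1, pandas 2.3.3, numpy 2.4.6 and matplotlib 3.10.9 under Python 3.11.15.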

Additional observations from a re-analysis of the deposited data

Results flagged for a closer look

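Some Bmp10 lay in barcodes outside the classes compared. The 3148 barcodes left out for haemoglobin of 0.5% or more held 331 Bmp10 counts, 37.1 CPM over both replicates, above the 6.87 CPM of the 61 barcodes made mostly of haemoglobin. The 904 kept barcodes with no class held 48.1 CPM, and the 110 cardiomyocytes with a Myl2 share between the atrial and ventricular limits held 175 CPM, 118 CPM in the first and 253 CPM in the second replicate. These values lie between the 506 CPM of atrial and the 5.67 CPM of ventricular barcodes.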

How the results depend on the processing

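No paired analysis was possible because there is 1 group, and its 2 technical replicates come from 1 biological sample. Over 17 alternatives, 15 of them fixed at the start, the 8 called ratios between paired classes kept their direction in all 133 values and were still called in 130. The number of members called in a class was 1 at 3-fold, where 6.64% of all features were called, against 2. Between atrial and ventricular barcodes it was 6 at 1.5-fold, where 25% of features were called, against 3. Between endocardial and vascular endothelial barcodes it was 5 at 1.5-fold (28% of features) and 1 at 3-fold (8.04%), against 3. Between epicardial and fibroblast barcodes it was 2 with a stricter marker gate (13.2% of features), 2 with a mean over barcodes (15.8%) and 3 at 1.5-fold (21.7%), against 1 (13.6%). There it was 1 to 3 with either replicate left out (24.5% of features without the first and 26.3% without the second). Between pericytes and smooth muscle it was 2 at 1.5-fold (28.5% of features), against 1 (16.7%). There it was 1 to 2 with either replicate left out (23.3% of features without the first and 25.6% without the second). The highest class of a member was kept in 9 of 9 members without the second replicate and in 7 without the first, where Bmp2 was highest in atrial and Bmp5 in smooth muscle barcodes. Over all settings, the ratio of that class to the next fell as low as 0.656 for Bmp2 and 0.883 for Bmp5. It fell to 0.746 for Bmpr1a and 0.768 for Acvrl1, so their highest class changed as well. In the other tested members it stayed above 1. A class minimum of 50 barcodes, and 2 settings that removed epicardial barcodes, gave no epicardial value. Alternative values of single genes stayed within their counting interval in 465 cases and moved outside it in 45. Sparse counts limit Bmp2, Bmp4, Bmp5 and Bmp6 outside their highest classes.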
